A study of Mus musculus with 6 samples.

Results

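Transcripts of 53 genes that build ribosomes or transcribe ribosomal RNA were examined in sorted muscle stem cells (MuSCs, the cells from which skeletal muscle regenerates) without culture. The genes were chosen by symbol, as the Pol I machinery, the proteins of small nucleolar RNA complexes, nucleolar processing factors and Myc. All 53 were among the 22081 genes of the expression table, and all 53 were among the 18562 genes whose mean over the libraries was high enough to be tested. RNA-seq had been performed on 3 control and 3 Taf4asKO libraries from C57BL/6 mice. The Taf4asKO animals were Pax7CreERT/Taf4a flox/flox mice given tamoxifen, so that exons of Taf4 (formerly Taf4a), a subunit of the general transcription factor TFIID, were removed in cells with an active Pax7 promoter. By the study's methods the controls were littermates with floxed Taf4a alleles, with or without the Cre driver, while the sample titles call them wild type. All mice were adults, and each library was made from 10 ng of total RNA of 90000 sorted cells.

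Ribosomes are assembled in the nucleolus. RNA polymerase I (Pol I) transcribes a long precursor of ribosomal RNA, guided to the repeated rDNA genes by UBTF, the SL1 complex and RRN3. Small nucleolar RNAs (snoRNAs) direct the modification of this precursor as parts of C/D box and H/ACA box particles, and large sets of assembly factors then cut, fold and package it into the 40S and 60S subunits. Quiescent MuSCs are small cells with little cytoplasm, and the demand for ribosomes is known to grow when they activate and enter the cell cycle.

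The gene-level value of Taf4 was not lower in the Taf4asKO libraries. It was 613, 534 and 478 normalized counts in control replicates 1, 2 and 3 and 631, 565 and 574 in Taf4asKO replicates 1, 2 and 3 (log2 fold change 0.13, SE 0.12, limma adjusted p = 0.524). The value sums exons inside and outside the deleted part, so it does not check the labels, and Taf4asKO below means the libraries labelled so. A normalized count is a read count divided by a size factor of its library and rounded. The totals lay between 12338676 and 14551732 normalized counts per library, which correspond to an estimated 10.6 M to 17.6 M reads (M, 1e6). The 8 MuSC markers summed to between 38984 and 41590 in control and between 39707 and 41607 in Taf4asKO, with 3 lower and 2 higher. Schwann cell markers summed to between 1178 and 2890 in control and between 3480 and 4266 in Taf4asKO, with 4 of 5 higher. Fibro-adipogenic markers summed to between 56446 and 82867 in control and between 34056 and 56403 in Taf4asKO. Of these 8, Col3a1, Cd34 and Dpt were lower, while the other 5 lay above zero, the median log2 fold change was 0.65, and 4 were higher with the replicate block. Col3a1 made up most of the sum in control, with a mean of 47010 there and 15880 in Taf4asKO. The means of Col1a1 were 16850 and 26860. In control Pdgfra, Lum and Ly6a had means of only 113.3, 103.0 and 8.667, so the sum says little about them. Endothelial and blood cell markers summed to between 879 and 1277 and between 469 and 581 in control, and to between 1392 and 1700 and between 696 and 942 in Taf4asKO. Of the 6 endothelial markers none passed with limma and 4 were higher at an unadjusted p under 0.05, and with the replicate block 2 were higher, Cdh5 and Kdr. Of the 7 blood cell markers 4 were in the table, Ptprc not among them, and none passed, with 1 lower and 1 higher at an unadjusted p under 0.05, and with the replicate block 1, Lyz2, was higher. Myofibre markers overlapped, at between 1211 and 3688 in control and between 2097 and 2658 in Taf4asKO. By the study's methods, cells positive for SCA1, CD45 or CD31 were depleted before sorting on integrin-a7 or a Pax7 reporter. Its reporting summary gives an incomplete purity for sorted cells on reanalysis. The part of cells other than MuSCs in the results that follow was not tested.

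Of the ribosome biogenesis genes, 8 were lower in Taf4asKO MuSCs and 45 did not pass the test. A gene passed when the limma test gave a Benjamini-Hochberg adjusted p under 0.05 over all genes tested together with a fold of at least 1.3. The 8 lower genes were 15.1% of the 53, against 6.71% of all genes tested, and 0 were higher, against 5.93% of all genes tested. They were Polr1a, Polr1d, Taf1d, Nhp2, Ncl, Npm1, Rrp9 and Noc2l. All 53 genes had a mean of at least 50. Among the 11323 genes with such a mean, 9.71% were lower and 9.33% higher. Of the 53 genes 8 were again lower (15.1%) and 0 higher in that setting. At an unadjusted p under 0.05 there were 21 lower genes and 1 higher gene, against 2630 lower and 2714 higher among all 18562 tested. With limma-voom, run as another tool, 8 of the 53 were lower and 0 higher, against 6.35% and 5.88% of all genes. Among the 53 genes 43 had a log2 fold change below zero (81.1%, against 49.6% of all genes tested). Their median was -0.24, against 0.004 for all genes tested, and they ranged from -0.87 to 0.39. Without control replicate 2, 35 of the 53 lay below zero and the median was -0.13. In 20 genes (37.7%) each Taf4asKO library was below each control library, which held for 16.4% of all genes tested. In 1 gene, Nop10, each Taf4asKO library was above each control library, which held for 16.6% of all genes tested.

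The count depended on which libraries were used and on whether the replicate numbers were treated as pairs. The replicate block treats libraries of the same number as pairs, a pairing inferred from these same values and not given by the labels. In the fit with the replicate block, 13 genes were lower (24.5%, against 8.98% of all genes tested) and 0 were higher (against 9.09%). The genes added were Polr1c, Fbl, Gnl3, Noc4l and Nop16. Leaving out Taf4asKO replicate 1, 2 or 3 left 4, 1 and 2 lower genes, which were 7.55%, 1.89% and 3.77% of the 53, while the number over all genes fell from 1246 to 765, 630 and 595 (4.11%, 3.38% and 3.20%). After trends over GC content and exon length were taken out of the libraries (the GC and length adjustment) 9 genes were lower, with Gnl3 and Wdr12 added and Nhp2 lost. Taf1d was lower in all 17 alternative settings tried. In these bulk libraries fewer cells that express a gene and less RNA of that gene per cell cannot be told apart, and since no source used here links the libraries to individual animals, the p-values measure the spread between these libraries.

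**Figure D1:**
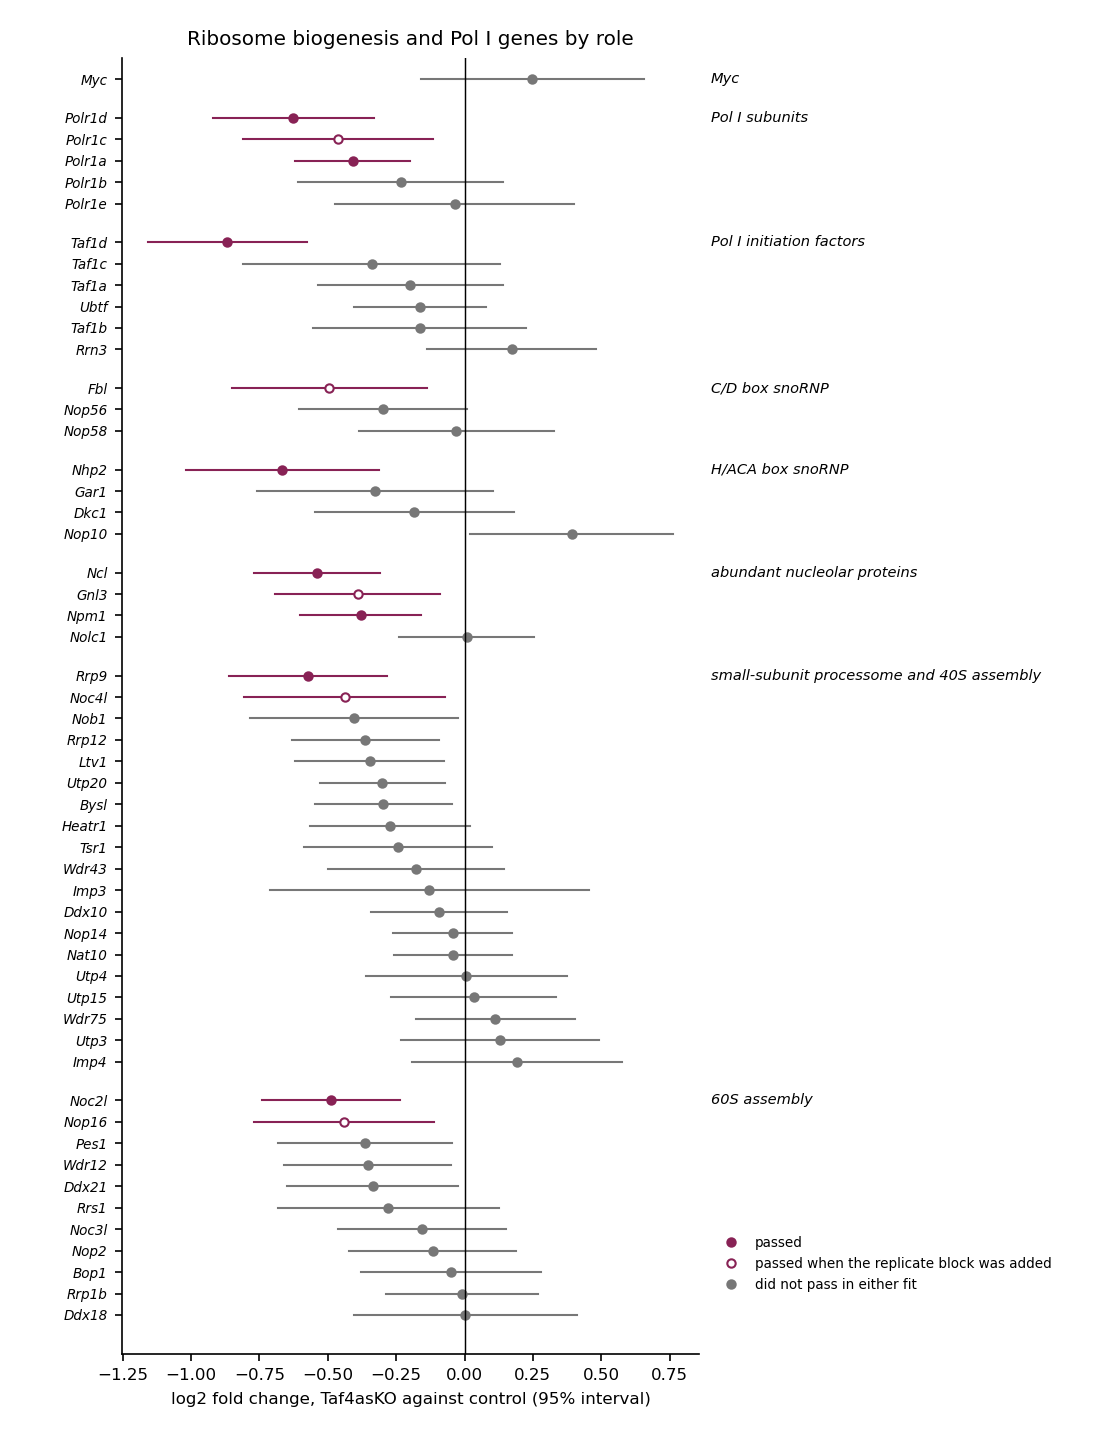
Log2 fold change of each of the 53 genes (horizontal axis, Taf4asKO against control, on the log2(value + 1) scale) with its 95% interval from limma, grouped by role. Filled purple points passed, open purple points passed when the replicate block was added to the fit, and grey points passed in neither of these 2 fits; most points lie left of zero, with Taf1d farthest at -0.87 and Nop10 farthest to the right at 0.39.

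Of the subunits of the enzyme itself, 2 of 5 were lower, 3 of 5 with the replicate block, with a median log2 fold change of -0.41. Polr1a encodes the largest, catalytic subunit of Pol I. Its values were 1502, 1686 and 1514 in control and 1223, 1123 and 1193 in Taf4asKO. No Taf4asKO library reached the lowest control, and the mean in Taf4asKO was 75.3% of the control mean (log2 fold change -0.41, SE 0.09, limma adjusted p = 0.0201). The call was lost without Taf4asKO replicate 1, 2 or 3 (adjusted p = 0.0519, 0.112 and 0.0843), and without control replicate 2, when the log2 fold change of -0.35 no longer reached the fold limit.

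Polr1d, a subunit shared by Pol I and Pol III, had the larger drop of the pair. Its values were 240, 250 and 223 in control and 162, 147 and 152 in Taf4asKO. The groups were far apart relative to their spread, and the Taf4asKO mean was 64.7% of control (log2 fold change -0.63, SE 0.13, adjusted p = 0.0140 by limma). Without Taf4asKO replicate 2 or 3 the adjusted p was 0.0769 and 0.0699. Polr1c, which pairs with Polr1d in both enzymes, stood at 272, 339 and 235 in control and 187, 212 and 208 in Taf4asKO. These groups did not overlap either, but control replicates differed more among themselves (log2 fold change -0.46, limma adjusted p = 0.0816, and 0.0415 with the replicate block). Polr1c also passed with upper-quartile scaling (adjusted p = 0.0476) and without control replicate 3 (0.0443). Polr1b, the second catalytic subunit, measured 355, 539 and 391 in control and 316, 405 and 359 in Taf4asKO, with overlapping groups. Polr1e, part of the subunit pair particular to Pol I, measured 119, 161 and 116 in control and 105, 149 and 132 in Taf4asKO, also overlapping.

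Among the initiation factors, Taf1d stood out, with 1 of 6 genes lower and a group median of -0.18. Taf1a, Taf1b, Taf1c and Taf1d encode the factors that form SL1 together with the TATA-binding protein. Taf1d measured 647, 744 and 571 in control and 378, 372 and 321 in Taf4asKO. The highest Taf4asKO library was far below the lowest control, and the Taf4asKO mean was 54.6% of control (log2 fold change -0.87, SE 0.13, limma adjusted p = 0.0028). Over the alternatives its log2 fold change ranged from -1.02 to -0.77 and its adjusted p from 8.69e-05 to 0.0204. The row counted as Taf1d spans 5891 bases in the expression table, whereas GENCODE M21 gives the gene 10778 bases from the same start. At that start its exons in GENCODE M21 overlap those of 4931406C07Rik by 235 bases on the opposite strand.

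None of the other initiation factors passed. Taf1a was at 146, 172 and 178 in control and 132, 151 and 148 in Taf4asKO. Taf1b was at 139, 196 and 193 in control and 139, 159 and 169 in Taf4asKO. Taf1c was at 89, 128 and 88 in control and 68, 82 and 88 in Taf4asKO. In all 3 the groups overlapped, and the log2 fold changes were -0.20, -0.16 and -0.34. The interval of the difference was -0.54 to 0.14 for Taf1a, -0.55 to 0.23 for Taf1b and -0.81 to 0.13 for Taf1c, so a drop as large as that of Polr1d was within the interval of Taf1c. Ubtf, which keeps the rDNA open, was at 2791, 2569 and 2330 in control and 2555, 2119 and 2194 in Taf4asKO (log2 fold change -0.16, interval -0.41 to 0.08). Rrn3, the factor that makes Pol I competent to start, was at 530, 663 and 454 in control and 622, 618 and 594 in Taf4asKO (0.17, interval -0.14 to 0.48).

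Core proteins shared by the snoRNA particles of a class were 7 of the 53 genes, with Rrp9, which is particular to the U3 particle, described among the 40S factors. Differences between the proteins of 1 particle were not tested. Of the core C/D box proteins, 0 of 3 passed with limma, while 1, Fbl, was lower at an unadjusted p under 0.05 and passed under 3 other scalings and with the replicate block. Fbl, the methyltransferase fibrillarin, measured 366, 508 and 355 in control and 324, 261 and 278 in Taf4asKO (log2 fold change -0.50, SE 0.16, limma adjusted p = 0.0707, and 0.0426 with the replicate block). The adjusted p was 0.0389 with upper-quartile scaling, 0.0478 with total scaling and 0.0452 with scaling without abundant genes. Its groups did not overlap, and control replicate 2 stood well above the other controls. Nop56, a scaffold protein, measured 1085, 1492 and 1029 in control and 994, 931 and 971 in Taf4asKO, again without overlap but with a smaller difference of -0.30 (adjusted p = 0.188 by limma). Nop58, the partner scaffold, measured 2965, 2185 and 2307 in control and 3052, 2182 and 2106 in Taf4asKO and overlapped almost fully. In both groups of Nop58 replicate 1 was the highest.

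Of the H/ACA box proteins, 1 of 4 passed. Nhp2 measured 231, 324 and 245 in control and 156, 176 and 166 in Taf4asKO (log2 fold change -0.67, SE 0.16, limma adjusted p = 0.0225), and its mean in Taf4asKO was 62.2% of control. It did not pass without Taf4asKO replicate 1, 2 or 3 (adjusted p = 0.083, 0.0725 and 0.0867), nor after the GC and length adjustment (adjusted p = 0.0928). Dkc1, the pseudouridine synthase of the particle, measured 524, 795 and 512 in control and 500, 550 and 528 in Taf4asKO, with all 3 Taf4asKO libraries inside the control range or just below it. Gar1 measured 175, 248 and 156 in control and 143, 174 and 137 in Taf4asKO, with overlap. Nop10, the smallest protein of the particle, was at 98, 123 and 123 in control and 167, 142 and 142 in Taf4asKO. It did not pass (log2 fold change 0.39, SE 0.17, limma adjusted p = 0.153).

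The 2 most abundant transcripts of the set per kb of exon, Ncl and Npm1, belonged to a group of 4 nucleolar proteins. Nolc1 and Gnl3, also of this group, ranked 7 and 20. Of the 4 genes 2 were lower, 3 with the replicate block, with a median of -0.38. Ncl encodes nucleolin, which binds rDNA and nascent pre-rRNA. It measured 13259, 15680 and 13007 in control and 9579, 9547 and 9641 in Taf4asKO. The 3 Taf4asKO libraries were nearly equal and all below the lowest control (log2 fold change -0.54, SE 0.10, limma adjusted p = 0.0088). The adjusted p without Taf4asKO replicate 2 was 0.0561. Ncl alone made up 26.5%, 26.6% and 27.3% of the summed normalized counts of the 53 genes in control and 21.8%, 22.8% and 23.1% in Taf4asKO.

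Npm1, nucleophosmin, a chaperone of ribosomal proteins and histones, measured 2831, 3419 and 2892 in control and 2386, 2339 and 2280 in Taf4asKO. The groups did not overlap, and the drop was the smallest of the 8 (log2 fold change -0.38, SE 0.10, limma adjusted p = 0.0332). Without control replicate 2 it was -0.29 and under the fold limit, and without Taf4asKO replicate 1, 2 or 3 the adjusted p was 0.0799, 0.127 and 0.136. The authors removed reads that map to several places, so its value rests on reads that tell Npm1 from its processed pseudogenes. Gnl3, nucleostemin, a GTP-binding nucleolar protein of stem and proliferating cells, measured 936, 1248 and 900 in control and 833, 784 and 715 in Taf4asKO (log2 fold change -0.39, limma adjusted p = 0.0883, and 0.0328 with the replicate block). Gnl3 also passed with upper-quartile scaling (0.0395) and after the GC and length adjustment (0.0356). Nolc1, a chaperone of snoRNA particles, measured 1390, 1614 and 1254 in control and 1490, 1355 and 1417 in Taf4asKO, and the control range spanned all Taf4asKO values.

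**Figure D2:**
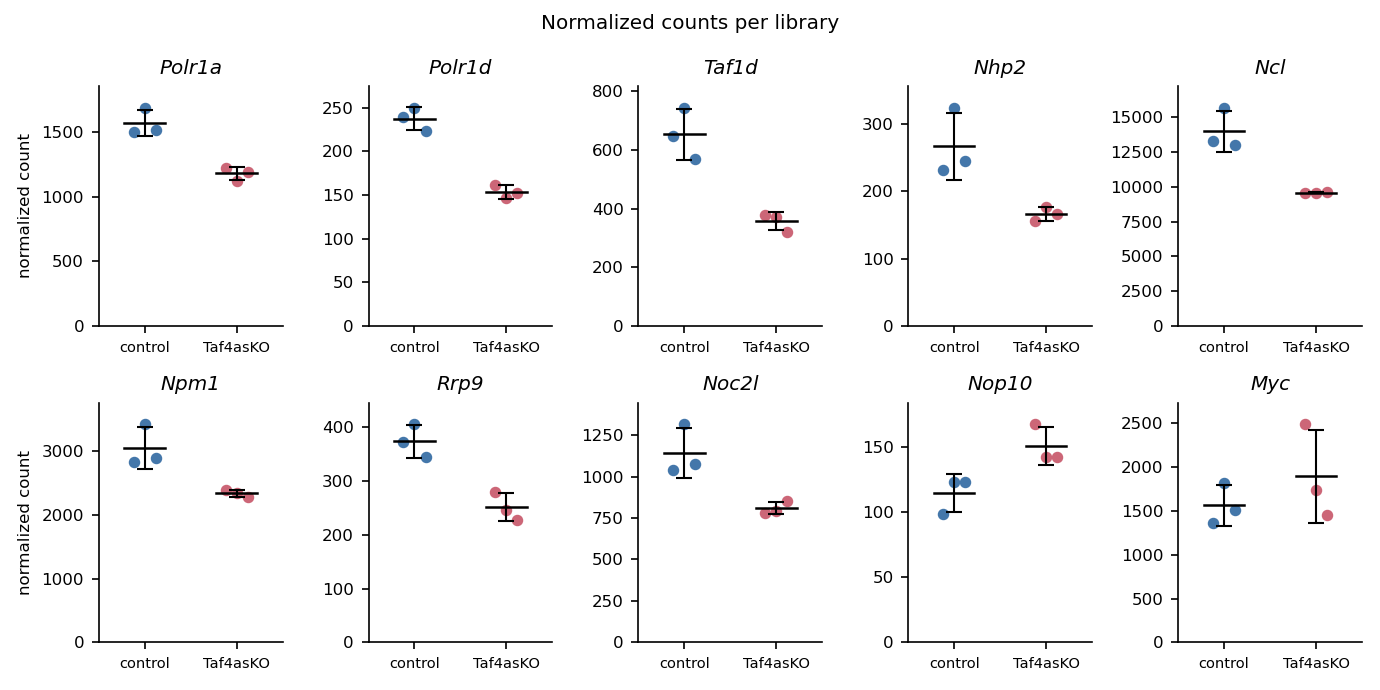
Normalized counts (vertical axis, from 0) in each of the 3 control (blue) and 3 Taf4asKO (red) libraries for the 8 genes that passed and for Nop10 and Myc, which did not. Horizontal lines are means and bars are SDs (n = 3 per group); the groups are separate in the first 9 panels, with Nop10 in the opposite direction, and overlap for Myc.

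Factors of the small-subunit processome, the large particle that forms on the growing pre-rRNA, and of 40S assembly made up 19 of the 53 genes. Of these 1 was lower, 2 with the replicate block, 14 lay below zero, and the median was -0.18. Rrp9, a protein of the U3 snoRNA particle, measured 372, 405 and 344 in control and 280, 246 and 228 in Taf4asKO (log2 fold change -0.57, SE 0.13, limma adjusted p = 0.0188). Each Taf4asKO library was below each control, and the mean was 67.3% of control. Without Taf4asKO replicate 2 or 3 the adjusted p was 0.0877 and 0.0987. Noc4l, which acts with NOP14 in 40S assembly, measured 273, 262 and 227 in control and 228, 183 and 156 in Taf4asKO (log2 fold change -0.44, limma adjusted p = 0.112, and 0.0437 with the replicate block). Its highest Taf4asKO value was 1 above its lowest control value. Nop14 itself measured 832, 962 and 902 in control and 883, 851 and 877 in Taf4asKO, a difference of -0.04 with an interval of -0.26 to 0.17.

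A further 5 genes of this group had groups without overlap and did not pass. Utp20, a very large scaffold protein, measured 1269, 1080 and 1257 in control and 925, 1021 and 976 in Taf4asKO (log2 fold change -0.30, limma adjusted p = 0.0840). Rrp12, which helps export of pre-ribosomes, measured 402, 414 and 376 in control and 276, 324 and 328 in Taf4asKO (-0.36, adjusted p = 0.0767 by limma). The late 40S factors Bysl, Ltv1 and Nob1, the last of which is the nuclease that makes the end of 18S rRNA, differed by -0.30, -0.35 and -0.40, with adjusted p-values from limma of 0.113, 0.0926 and 0.151. Tsr1, another late 40S factor, differed by -0.24 with overlapping groups. After the GC and length adjustment with the block Utp20 and Ltv1 passed (adjusted p = 0.0253 and 0.0266).

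None of the early-binding WD repeat and scaffold proteins passed. Heatr1 and Wdr43 differed by -0.27 and -0.18, Utp4 and Utp15 by 0.01 and 0.03, and Wdr75 by 0.11 on the log2 scale, all with overlapping groups. Imp4, a protein that binds U3, had the highest difference of the 40S group, at 219, 316 and 206 in control and 254, 286 and 293 in Taf4asKO (0.19, interval -0.19 to 0.57). Its partner Imp3 had the widest spread of all 53, at 117, 277 and 192 in control and 166, 176 and 163 in Taf4asKO. Utp3 differed by 0.13, the helicase gene Ddx10 by -0.09, and Nat10, which acetylates 18S rRNA, by -0.04, with an interval of -0.26 to 0.17.

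Of the 11 factors of 60S assembly, 1 was lower, 2 with the replicate block, and 10 lay below zero, with a median of -0.28. Noc2l, which escorts pre-60S particles within the nucleus, measured 1037, 1315 and 1077 in control and 783, 794 and 854 in Taf4asKO (log2 fold change -0.49, SE 0.11, limma adjusted p = 0.0204). All 3 Taf4asKO libraries were below the lowest control. Without Taf4asKO replicate 1, 2 or 3 the adjusted p was 0.0756, 0.0956 and 0.0628. Its exons in GENCODE M21 overlap 598 bases of Samd11 on the opposite strand, and whether counting used strand is not stated in the sources used here. Nop16 measured 273, 331 and 241 in control and 219, 204 and 194 in Taf4asKO (log2 fold change -0.44, limma adjusted p = 0.0792, and 0.0444 with the replicate block). Nop16 also passed with upper-quartile scaling (0.0434), with scaling without abundant genes (0.0499) and without control replicate 3. Noc3l, the partner of Noc2l, measured 526, 695 and 511 in control and 467, 534 and 542 in Taf4asKO and overlapped.

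The PeBoW complex, a trimer needed to process 28S and 5.8S rRNA, had no gene past the threshold in the fit without adjustment or block. Pes1 measured 516, 613 and 514 in control and 350, 451 and 482 in Taf4asKO (log2 fold change -0.36, limma adjusted p = 0.124). Wdr12 measured 290, 345 and 279 in control and 214, 246 and 253 in Taf4asKO (-0.35, adjusted p = 0.119 by limma). It passed after the GC and length adjustment (-0.50, adjusted p = 0.0342, and 0.0184 with the replicate block added). Pes1 and Wdr12 were both without overlap, whereas Bop1 was at 429, 508 and 351 in control and 425, 374 and 434 in Taf4asKO (-0.05, interval -0.38 to 0.28). Ddx21, a helicase of nucleolus and nucleoplasm, measured 2691, 3464 and 2267 in control and 2295, 2165 and 2116 in Taf4asKO (-0.34, limma adjusted p = 0.148). It overlapped by 1 library, control replicate 3, and without that library it passed (adjusted p = 0.0408), as it did after the GC and length adjustment with the block (0.0179). Rrs1 differed by -0.28, Nop2, a methyltransferase of 28S rRNA, by -0.12, Rrp1b by -0.01 and the helicase gene Ddx18 by 0.003 on the log2 scale, all with overlapping groups.

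Myc, the transcription factor known to drive many ribosome biogenesis genes, was not lower in Taf4asKO. It measured 1362, 1822 and 1515 in control and 2489, 1736 and 1459 in Taf4asKO, and only Taf4asKO replicate 1 lay outside the control range (log2 fold change 0.25, SE 0.18, interval -0.16 to 0.66, limma adjusted p = 0.407). Of 10 other genes of the Myc network, 1 was lower and 1 was higher. Mxd3, whose protein competes with MYC for the partner MAX, measured 38, 52 and 28 in control and 12, 17 and 15 in Taf4asKO (log2 fold change -1.33, SE 0.32, limma adjusted p = 0.0249). When control replicate 1 was left out Mxd3 did not pass (adjusted p = 0.0557), nor when Taf4asKO replicate 1, 2 or 3 was left out (0.0858, 0.0654 and 0.0842). Mxi1, of the same family of antagonists, measured 375, 400 and 501 in control and 641, 690 and 626 in Taf4asKO (log2 fold change 0.63, SE 0.13, limma adjusted p = 0.0120), and lost its call without Taf4asKO replicate 2 (0.0726).

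The libraries differed within the control group. Control replicate 2 held the highest control value in 46 of the 53 genes, and the highest of all 6 libraries in 44. Measured against the mean of the 3 controls, the median of the 53 genes on the log2 scale was -0.10, 0.24 and -0.13 in control replicates 1, 2 and 3 and -0.29, -0.19 and -0.22 in Taf4asKO replicates 1, 2 and 3. The medians of all genes tested lay between -0.01 and 0.03 in the same libraries. Each Taf4asKO median was thus below each control median, while the distance from the upper to the lower controls was larger than that from the lower controls to Taf4asKO. Summed over the 53 genes the normalized counts were 49954, 58847 and 47566 in control and 43982, 41936 and 41803 in Taf4asKO, and without Ncl they were 36695, 43167 and 34559 in control and 34403, 32389 and 32162 in Taf4asKO. Without control replicate 2, 6 of the 53 genes were lower (11.3%), against 7.99% of all genes tested in that setting.

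**Figure D3:**
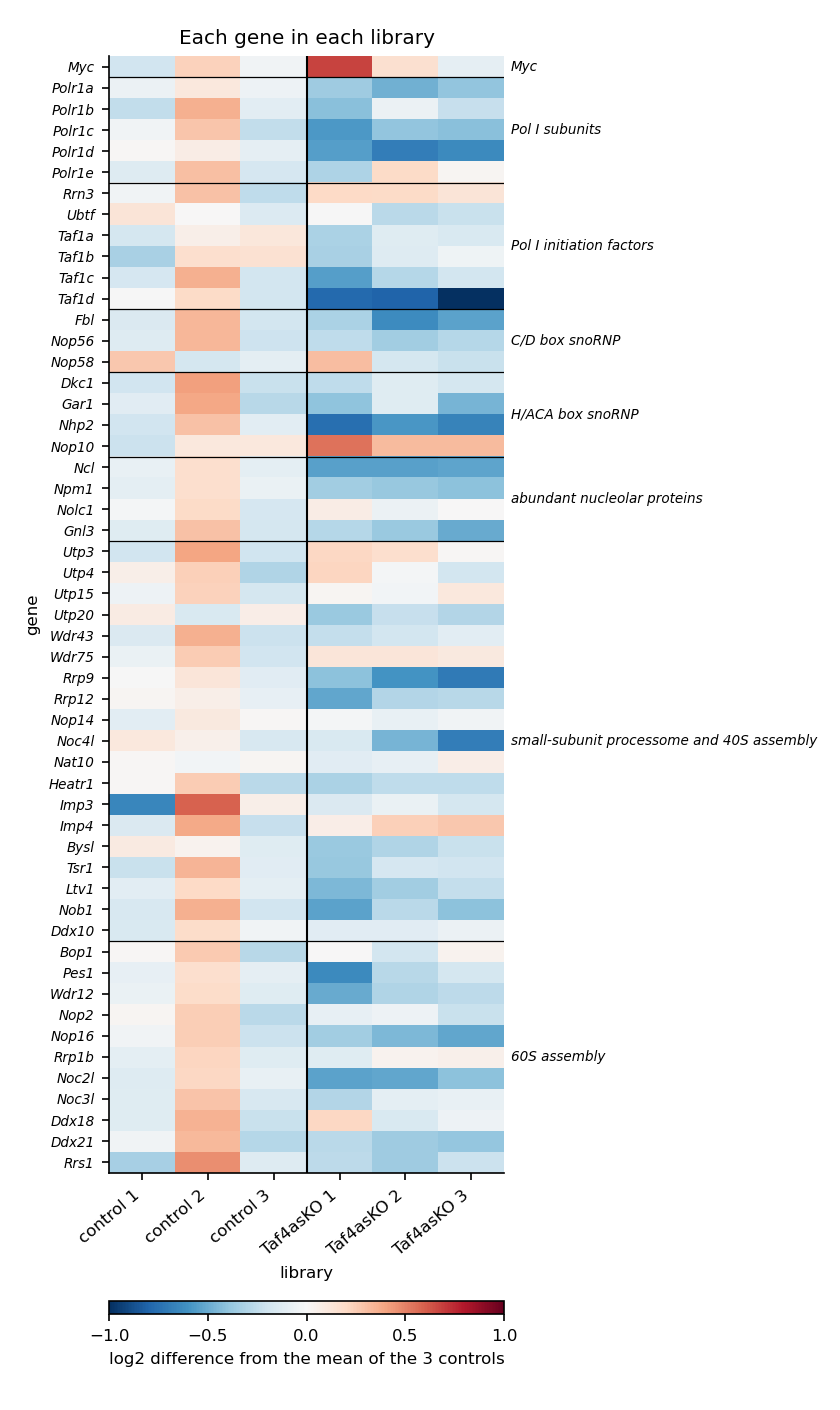
Each of the 53 genes (rows, grouped by role) in each of the 6 libraries (columns), coloured by the log2 difference from the mean of the 3 controls (blue lower, red higher). Control replicate 2 is red in most rows, with a median of 0.24, and the 3 Taf4asKO columns are mostly blue, with medians of -0.29, -0.19 and -0.22.

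Levels between genes were compared as normalized counts per kb of exon in GENCODE M21. In control, Ncl was highest at 1372 per kb, followed by Npm1 at 1143, Myc at 576.5, Ddx21 at 542.3 and Noc2l at 398.7 per kb. The lowest were Wdr12 at 25.5, Imp4 at 28.9 and Taf1c at 29.1 per kb. The exon lengths of these genes were 11955, 8553 and 3490 bases, and for Imp4 this was most of its span of 9506 bases. The low ranks of Wdr12 and Imp4 depend on these lengths. Exon length counts each annotated exon base once, including exons of retained-intron transcripts, which lowers the level per kb of genes that have them. No level is given for Taf1d and Taf1a, of whose exon bases in GENCODE M21 54.6% and 35.1% lie outside the bounds that the expression table gives these genes. For the other 51 genes this share was at most 5.03%. The other 7 lower genes did not share a level, since they ranged from Polr1d at 78.1 to Ncl at 1372 per kb.

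The same pathways hold further genes, and 150 of 151 listed in 7 groups were tested. Of these 12 were lower (8.0%) and 2 were higher, with a median of -0.06, while 6.71% of all genes tested were lower and 5.93% higher. Of the 146 pathway genes with a mean of at least 50, 13 were lower (8.9%), against 9.71% of all genes with such a mean. In that setting 2 were higher (1.37%, against 9.33%). With the replicate block 19 of the 150 were lower (12.7%, against 8.98% of all genes) and 2 higher (against 9.09% of all genes). Leaving out control replicate 1 or Taf4asKO replicate 1, 2 or 3 left 7, 4, 4 and 5 lower genes (4.67%, 2.67%, 2.67% and 3.33%), against 5.17%, 4.11%, 3.38% and 3.20% of all genes in the same settings. Without control replicate 2 there were 6 higher genes (4.0%, against 8.62% of all genes). Without Taf4asKO replicate 1, 2 or 3 there were 1, 0 and 1 higher genes, against 2.6%, 1.88% and 1.94% of all genes.

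Among the other factors of 60S assembly 6 of 48 were lower and 1 was higher. Nop53, a pre-60S factor that brings in the RNA exosome, measured 2426, 2667 and 2712 in control and 1400, 1325 and 1268 in Taf4asKO (log2 fold change -0.97, SE 0.09, limma adjusted p = 0.000291). Nsa2 measured 389, 524 and 439 in control and 246, 248 and 230 in Taf4asKO (-0.89, limma adjusted p = 0.0030). Ppan measured 528, 849 and 603 in control and 302, 401 and 361 in Taf4asKO (-0.87, limma adjusted p = 0.0117, and 0.0570 without Taf4asKO replicate 1). In all 3 the Taf4asKO mean was between 51.2% and 53.7% of control, and the groups were far apart. The higher gene, Las1l, which encodes the nuclease that cuts the second internal spacer of pre-rRNA, was named after its values were seen, at 596, 599 and 618 in control and 855, 827 and 788 in Taf4asKO (0.44, limma adjusted p = 0.0148). Las1l did not pass without Taf4asKO replicate 1, 2 or 3 (0.0617, 0.0811 and 0.0573) or after the GC and length adjustment (0.0621).

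The other groups held fewer calls. Among other 40S factors 3 of 36 were lower, namely the rRNA methyltransferase gene Emg1 (log2 fold change -0.51, limma adjusted p = 0.0303), Rcl1 (-0.49, 0.0499) and Aatf (-0.44, 0.0175). Without Taf4asKO replicate 1, 2 or 3 all 3 lost their calls, with adjusted p-values of 0.0617, 0.131 and 0.123 for Emg1, 0.161, 0.145 and 0.0679 for Rcl1 and 0.0643, 0.0801 and 0.0799 for Aatf. Emg1 did not pass without control replicate 1 either (0.0587). Rcl1 also failed without control replicate 2 or 3 (0.0819 and 0.106), with a pseudocount of 0.1 (0.0539), with no filter (0.0517), with limma-voom (0.0505) and after the GC and length adjustment (0.0886). Among 11 other or shared Pol I subunits and factors 1 was lower, Mybbp1a, a nucleolar protein that also binds MYB, at 2354, 2965 and 2254 in control and 1876, 1875 and 1966 in Taf4asKO (-0.40, limma adjusted p = 0.0477). Without control replicate 1 its adjusted p was 0.0632, without Taf4asKO replicate 1, 2 or 3 it was 0.128, 0.165 and 0.128, with a pseudocount of 0.1 it was 0.0510, and without control replicate 2 or after the GC and length adjustment its log2 fold changes of -0.27 and -0.37 were under the fold limit. Of 22 genes for Pol III, the enzyme of 5S rRNA and tRNA, and its factors 1 was lower, the subunit gene Polr3e (-0.46, adjusted p = 0.0430 by limma). Its call was lost without control replicate 2 or 3 (0.0588 and 0.0838) and without Taf4asKO replicate 1, 2 or 3 (0.137, 0.0931 and 0.148). None of 10 snoRNP assembly factors and none of 13 exosome genes passed, with medians of -0.16 and 0.05. At an unadjusted p under 0.05 each of these 2 groups had 1 lower gene. That of the exosome was Exosc10, named after its values were seen, whose log2 fold change of -0.37 had a limma adjusted p of 0.0331 and missed only the fold limit. Genes with a ribosomal protein symbol, the products that are built in rather than the builders, were lower in 70 of 84 cases (83.3%, against 6.71% of all genes tested) and higher in 0 (against 5.93%), with a median of -0.76.

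**Figure D4:**
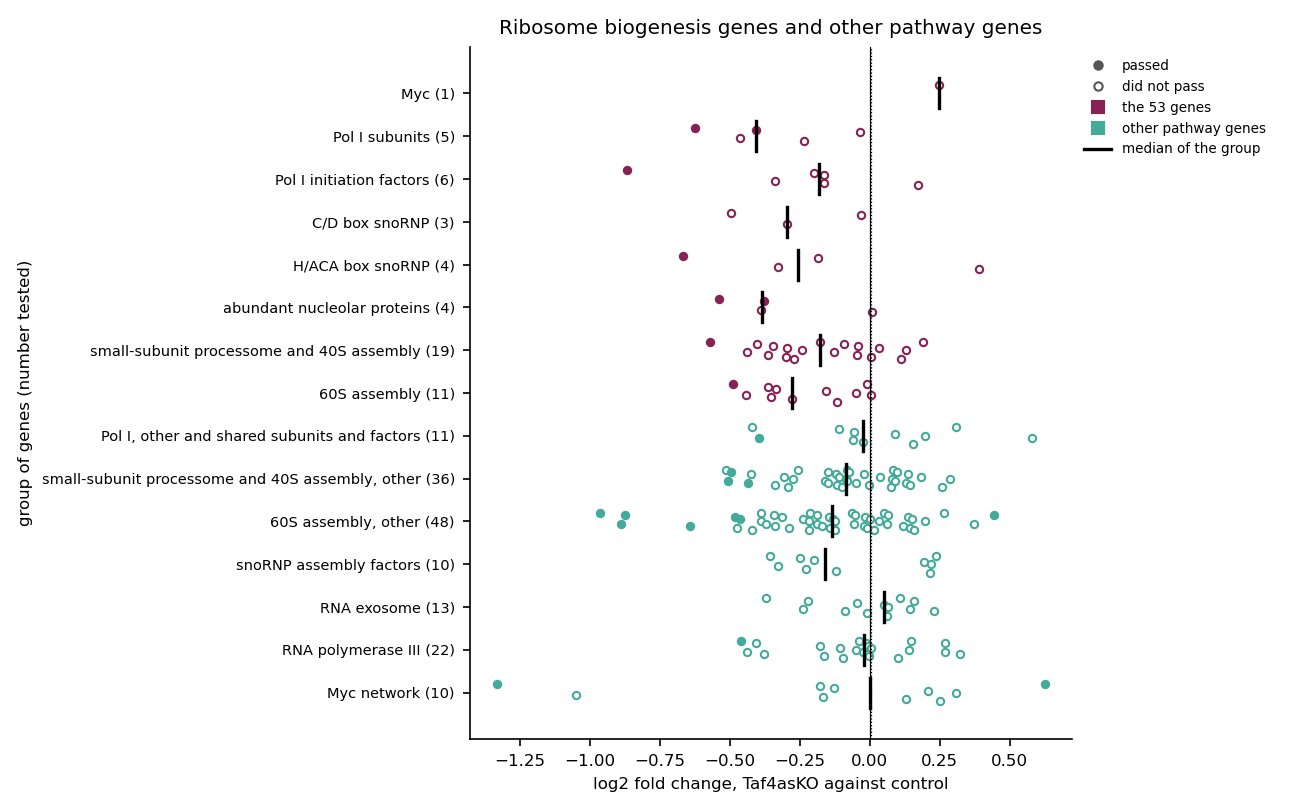
Log2 fold change of the 53 genes by role (purple) and of 150 other pathway genes by group (green), 1 point per gene, filled where the gene passed; black bars are group medians and the dotted line is the median of all genes tested, 0.004. The 7 purple groups other than Myc have medians from -0.41 to -0.18, and the green groups from -0.16 to 0.05.

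Several of the 53 genes carry snoRNA genes inside them as GENCODE M21 annotates them. It places 29 snoRNA genes within them on the same strand, of which 27 were in the table and 25 were tested, in Nop58, Ncl, Nop56, Taf1d, Tsr1, Wdr43 and Gnl3. Of the 25, 15 lay below and 10 above zero, with a median of -0.20, the value that 200 snoRNA genes tested across the genome also had. Of the 25, 18 lie within their host by the bounds of the expression table, while all 7 of Taf1d lie beyond its end, so these rows are neighbours of the counted Taf1d and hosted only by the longer gene of GENCODE M21. Of the 200 snoRNA genes tested across the genome, 10 were lower (5.0%) and 3 were higher. Of the 25 only Gm23455, which starts 4385 bases past the counted Taf1d, passed, and its log2 fold change had the opposite sign to that of Taf1d. It measured 113, 141 and 126 in control and 291, 209 and 213 in Taf4asKO, so that each Taf4asKO library lay well above each control (log2 fold change 0.89, SE 0.17, limma adjusted p = 0.0093). The call held in all settings tried, with log2 fold changes from 0.74 to 1.05. Gm25791, which starts 2741 bases past the counted Taf1d, measured 51, 45 and 53 in control and 29, 24 and 32 in Taf4asKO, without overlap and in the direction of Taf1d (-0.79, limma adjusted p = 0.060). It passed without control replicate 2 (adjusted p = 0.0448). The other 5 beside Taf1d ranged from -1.03 to 0.16 at mean levels of few reads, and the 3 within Gnl3 were between -0.90 and -0.89 with none past the threshold.

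The sequences of the 2 snoRNA genes with the clearest values are shown because they differ in direction within 1 host gene of GENCODE M21. They were read from the mm10 transcripts of GENCODE M21, 5′ to 3′ on the plus strand, and capitals mark the last ACA triplet, which lies 3 bases before the 3′ end in both, the place of the ACA box that names the H/ACA class. Neither holds the letters TGATGA or CTGA of the C and D boxes. Gm23455 is 100 bases long and lies at chr9:15316489-15316588, and Gm25791 is 137 bases long and lies at chr9:15314845-15314981.
Gm23455: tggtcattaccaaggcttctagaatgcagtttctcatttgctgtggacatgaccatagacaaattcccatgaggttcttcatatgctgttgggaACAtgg
Gm25791: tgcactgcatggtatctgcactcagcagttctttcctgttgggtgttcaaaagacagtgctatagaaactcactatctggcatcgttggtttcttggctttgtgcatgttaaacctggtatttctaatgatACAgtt
In GENCODE M21 all bases of both lie within exons of Taf1d transcripts, but both lie past the end of Taf1d in the expression table. The study's methods name Ensembl as the annotation behind the counts, whereas exon lengths, overlaps and hosts here come from GENCODE M21, and 38 of the 53 genes have the same bounds in both. Reads over more than 1 gene were left out of the counts, and with these bounds a read here would overlap the snoRNA gene and not Taf1d, so reads of longer Taf1d transcripts and of the snoRNAs cannot be told apart in these rows.

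**Figure D5:**
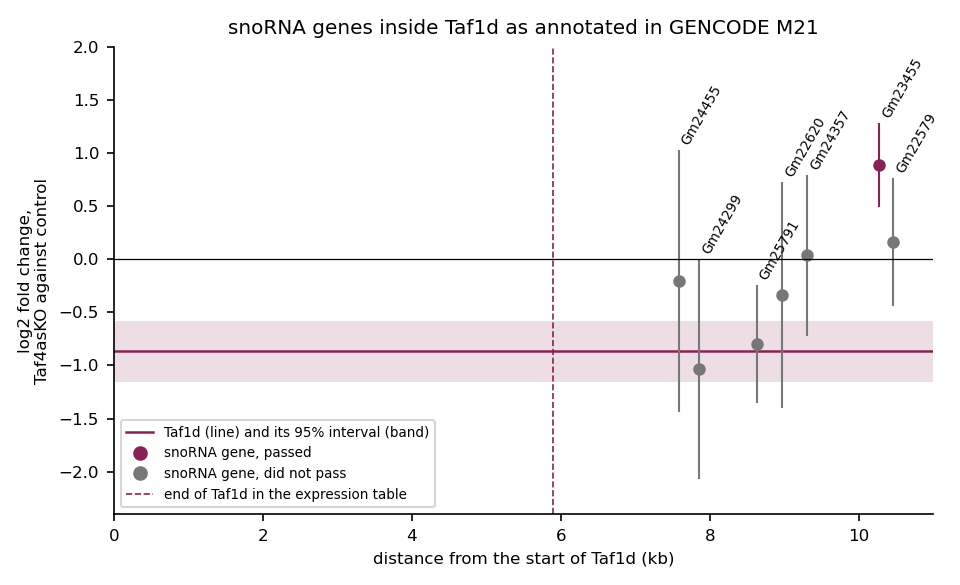
Log2 fold change (vertical axis, Taf4asKO against control) with 95% intervals of the 7 tested snoRNA genes inside Taf1d as annotated in GENCODE M21, by distance from the start of Taf1d in kb. The purple line and band are the counted Taf1d at -0.87 with its interval, and the dashed line is its end in the expression table, left of all 7; Gm23455 at 0.89 is the 1 snoRNA gene that passed.

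Promoter sequences were read for the lower genes because the study concerns TAF4A and NF-Y, a factor known to bind the letters CCAAT. RefSeq windows of GRCm38.p6, from 250 bases before to 50 after the start, were matched for 47 of the 53 genes. CCAAT, searched on both strands, was in 18 of the 47 (38.3%), against 42.5% of 10767 tested protein-coding genes and 41.1% of 27025 windows in all. The E-box CACGTG, a motif that MYC and MAX can bind and that reads the same on both strands, was in 9 (19.1%), against 11.2% and 8.09%. The GC box GGGCGG was in 34 (72.3%, against 67.6% and 38.2%) and TATAAA, both on either strand, in 2 (4.26%, against 8.82% and 15.7%). Of the 7 lower genes with a window, 3 held CCAAT, 4 held GGGCGG, and 0 held CACGTG or TATAAA. The 9 genes with the E-box had a median log2 fold change of -0.18 and those without it of -0.25, and the 18 genes with CCAAT of -0.17 against -0.27 for those without. These are descriptions of the letters and no test was made.

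The 3 lower genes with CCAAT are shown with Ncl, the most abundant gene, which has none. The stretches lie upstream of the start and outside annotated exons, are written 5′ to 3′ in the direction of the gene, and capitals mark CCAAT or its reverse ATTGG and GGGCGG or its reverse CCGCCC.
Polr1a, chr6:71908933-71909052, plus strand: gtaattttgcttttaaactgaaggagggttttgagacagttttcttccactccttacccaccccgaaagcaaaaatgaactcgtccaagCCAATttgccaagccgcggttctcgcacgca
Rrp9, chr9:106477149-106477268, plus strand: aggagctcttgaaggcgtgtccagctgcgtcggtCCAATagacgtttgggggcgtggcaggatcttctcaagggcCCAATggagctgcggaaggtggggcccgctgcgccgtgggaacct
Nhp2, chr11:51619615-51619734, plus strand: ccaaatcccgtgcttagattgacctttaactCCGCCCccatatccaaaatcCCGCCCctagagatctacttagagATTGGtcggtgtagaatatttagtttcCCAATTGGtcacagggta
Ncl, chr1:86359456-86359573, minus strand: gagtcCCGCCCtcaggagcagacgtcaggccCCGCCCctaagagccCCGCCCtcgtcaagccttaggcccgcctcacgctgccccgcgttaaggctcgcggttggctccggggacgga
In these stretches Rrp9 held 2 matches to CCAAT, Nhp2 held 3, of which the last 2 overlap on opposite strands, and Ncl held 3 matches to the GC box.

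The end product could not be read directly, since ribosomal RNA is depleted during such library preparation. The rows that collect its remaining reads are given as a description. Gm26917, a lincRNA row on chromosome 17 that is known to take up ribosomal RNA reads, stood at 1033228, 1146303 and 967570 in control and 889355, 838425 and 818522 in Taf4asKO. The groups did not overlap, and the row did not pass (log2 fold change -0.30, SE 0.24, limma adjusted p = 0.435). Gm42418, the neighbouring lincRNA row of the same kind, stood at 1498, 1672 and 1277 in control and 1345, 974 and 1696 in Taf4asKO and overlapped (-0.18, SE 0.18, limma adjusted p = 0.575). The 5.8S row n-R5-8s1 stood at 85103, 92622 and 83031 in control and 82538, 76332 and 98231 in Taf4asKO and overlapped.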

How the data were processed

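RNA-seq of sorted MuSCs was analysed from 1 table of 22081 genes with 6 libraries, 3 control and 3 Taf4asKO, grouped by the genotype labels. Per the submitters' processing notes and the study's methods, the authors trimmed reads (Trimmomatic 0.39), aligned them to mm10 (STAR 2.6.0c), removed reads mapping to several places, counted reads over exons without those overlapping several genes (featureCounts 1.6.0), and normalized with DESeq2 1.14.1. Use of strand in counting is not given in the sources used here. The deposited values are a score, normalized counts rounded to whole numbers: 9 of the whole numbers up to 60 were unused in control replicate 1. Size factors of 0.858 to 1.334, estimated from the unevenness of the whole numbers (unused ones where the factor is below 1, overfilled ones where it is above 1), gave 10.6 M to 17.6 M reads (M, 1e6) per library, and their number limits the precision of low genes.

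A count model was planned for raw counts only. Genes with a mean of at least 5 were tested with limma 3.58.1 (R 4.3.3; lmFit and eBayes with trend, two-sided, no covariate) on log2(value + 1), a scale on which changes of low genes appear too small. The threshold was a fold of at least 1.3 together with a Benjamini-Hochberg adjusted p under 0.05. The script was tested on simulated data. Members, lists and alternatives were chosen with earlier results of these data known. Named genes are all 53, up to 3 of the largest non-overlapping calls in each other list, Taf4 and snoRNA genes inside the 53. Las1l, Exosc10, the markers and the ribosomal RNA rows named are outside this rule and were chosen after their values were seen. The numbers 1 to 3 in the sample titles were taken as pairs because same-numbered libraries deviated together from their group means (correlations 0.235, 0.126 and 0.150, against -0.149 to 0.0141 for other pairs). No source used here says what libraries of the same number share. The pairing rests on the same values to which the block was fitted. Deviations from a mean of 3 libraries are tied to each other, so the other pairs are not an independent comparison. Alternatives were other scalings, pseudocount, filters, limma-voom, no fold limit, the block, and leaving out each library. Removal of spline trends (5 degrees of freedom) over GC content and exon length and all alternatives for the other lists were added after the data were seen. Figures were drawn with matplotlib 3.10.9.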

Additional observations from a re-analysis of the deposited data

How the results depend on the processing

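Of 901 values of single genes under 17 alternatives, 816 kept direction and side of the threshold, 20 kept direction and no longer passed, 23 newly passed and 42 changed sign. The lower count of 8 among the 53 genes lay between 8 and 12 under the scalings, pseudocount, filters, limma-voom and no fold limit, and at 9 with the GC and length adjustment, 7 of them shared, Gnl3 and Wdr12 added. It was 13 with the replicate block, 14 with the GC and length adjustment and the replicate block (Fbl, Gnl3, Utp20, Ltv1, Wdr12 and Ddx21 added), and 1 to 11 when a library was left out. The higher count was 0 throughout. Of the other pathway genes 12 were lower, 19 with the replicate block, 20 with the GC and length adjustment and the block, and 4 to 14 when a library was left out; 2 were higher, 1 with the GC and length adjustment (1 also with the block) and 0 to 6 when a library was left out. The replicate block changed no call among the 53 genes other than the 5 it added. The causes were not tested.

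The sign changes fell on 14 genes, none of which passed in any setting. With upper-quartile scaling Nolc1, Utp4 and Ddx18 were at -0.0128, -0.0146 and -0.0176, and with scaling without abundant genes at -0.0106, -0.0125 and -0.0155. Under the GC and length adjustment, whether blocked or not, Utp4 was at -0.0667, Utp15 at -0.0686, Wdr75 at -0.0021, Ddx18 at -0.0241, Imp3 at 0.0428 and Bop1 at 0.0489. When a library was left out, the ranges were -0.1474 to 0.1154 for Polr1e, -0.2004 to 0.1031 for Nop58, -0.2958 to 0.0211 for Dkc1, -0.0773 to 0.1046 for Nolc1, -0.1425 to 0.1263 for Utp4, -0.0541 to 0.1481 for Utp15, -0.2847 to 0.001 for Wdr43, -0.0981 to 0.0065 for Nop14, -0.4527 to 0.1654 for Imp3, -0.1864 to 0.0796 for Bop1, -0.2505 to 0.0053 for Nop2, -0.0692 to 0.0951 for Rrp1b and -0.1087 to 0.1758 for Ddx18. The fold limit of 1.3 itself bars calls of smaller differences, and without it the lower count was 8 again among the 53 genes and 13, against 12, among the other pathway genes. Without control replicate 2 the median of the 53 genes was -0.13, against -0.24.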
